A study of Homo sapiens with 4 samples.

Results

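The 4 HOX clusters hold the homeobox transcription factor genes that pattern the body axis. Protein-coding genes whose symbols are HOXA, HOXB, HOXC or HOXD followed by a number were chosen by name and matched through their Ensembl identifiers. This rule finds 39 genes, of which 1 gene of the HOXA cluster is not reported here. The genes described are the other 38, of 57820 genes in the count tables. They comprise 10 genes of the HOXA cluster, 10 of HOXB, 9 of HOXC and 9 of HOXD. Transcription was measured by stranded RNA-seq of polyadenylated RNA from untreated HAP1 cells, a near-haploid human line derived from a chronic myeloid leukaemia line that grows attached. Both libraries of the dKO group (dKO 1 and dKO 2) came from cells lacking RING1A and RING1B, and both libraries of the tKO group (tKO 1 and tKO 2) from cells lacking RING1A, RING1B and BAP1. The loss of RING1A and RING1B was thus shared by all libraries, and wild-type cells are not analysed here, so its effect on HOX genes cannot be read from these values. BAP1 and RING1A had been interrupted by a STOP cassette and antibiotic-resistant clones were picked, while the RING1B mutant was a purchased line, so differences between clones and between genotypes cannot be told apart.

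HOX genes of a cluster lie in the order in which they act along the body. Genes at one end (low paralog numbers, called anterior here for groups 1 to 4) pattern the hindbrain and neck, those in the middle (central, groups 5 to 8) the trunk, and those at the other end (posterior, groups 9 to 13) the lower trunk, limbs and urogenital tract. HOX genes are classic targets of the Polycomb system: PRC1, through RING1A or RING1B, places ubiquitin on histone H2A in silent clusters, and BAP1 removes it. The comparison of tKO with dKO therefore asks whether BAP1 matters for HOX transcription in cells that cannot place this mark.

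Most HOX genes were transcribed in these cells, and no HOX gene differed between the genotypes past the thresholds used (0 of 29 tested, against 0.0132% of all tested genes). Of the 38 genes, 29 passed the expression filter (a level above 0.5 CPM, counts scaled to the gene total of the library, in at least 2 libraries) and 6 had 0 counts in every library. The summed level of all 38 was 656 and 693 CPM in dKO and 692 and 696 CPM in tKO (674 ± 26.2 and 694 ± 2.83 CPM, SD, n = 2 each), so the tKO mean was 1.03 times the dKO mean and the groups overlapped. The member with the clearest difference was HOXD13, a gene of digit and genital development, at 39.5 and 39.0 CPM in dKO and 52.3 and 56.0 CPM in tKO. RNA of whole cultures was measured, so fewer cells transcribing a gene and less RNA per cell cannot be told apart.

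Gene counts per library ran from 16054590 to 18455410, at which 3 counts correspond to 0.163 to 0.187 CPM, the smallest level taken as detectable. BAP1, the targeted gene, had 2046 and 2010 counts in dKO and 158 and 107 in tKO (log2 fold change -3.77, limma adjusted p = 0.0065). RING1 (RING1A) was near the filter in every library at 12, 17, 12 and 13 counts, and RNF2 (RING1B) was still transcribed, at 1421, 1561, 1262 and 1102 counts. In tKO 1 a stretch of 116 genes on chromosome 10 (ZMYND11 to ZNF37A) stood below dKO by a median log2 ratio of -0.97, and in tKO 2 a stretch of 304 genes on chromosome 3 (CHL1 to ARHGEF3) by -0.93. BAP1 (chromosome 3, 52435024 to 52444024) lies within the stretch lowered in tKO 2. BAP1 was at 9.63 CPM in tKO 1 and 6.67 CPM in tKO 2, against 111 and 112 CPM in dKO. The share of the lowered stretch in the tKO 2 count of BAP1 was not tested. The HOX clusters lie on other chromosomes, and the median log2 ratio of the 29 tested HOX genes to dKO was 0.14 in tKO 1 and 0.08 in tKO 2. Of 8 haematopoietic markers only TAL1 passed the filter, and GATA1, SPI1, MPO and ITGAM were at 0. Their summed level was 27.4 to 27.5 CPM in dKO and 22.4 to 24.7 CPM in tKO. Of 5 markers of attached cells 4 passed (VIM and CDH2 highest) and EPCAM was at 0, and their sum was 639 to 669 CPM in dKO and 416 to 645 CPM in tKO, where the lowest value came from tKO 1 and VIM lies within its lowered stretch. Of 5 fibroblast markers only COL1A1 passed, COL1A2 and PDGFRB were at 0, and the sum was 10.5 to 12.8 CPM in dKO and 10.9 to 13.0 CPM in tKO.

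The clusters were laid out on GRCh37 as follows. HOXA spans chromosome 7 from 27139973 to 27239710 on the minus strand, HOXB chromosome 17 from 46605888 to 46806112 on the minus strand, HOXC chromosome 12 from 54332615 to 54449814 on the plus strand, and HOXD chromosome 2 from 176957449 to 177055635 on the plus strand. In each cluster transcription runs from the posterior toward the anterior end. The RefSeq promoter table held 20 of the 38 genes, and 250 bases upstream of the annotated start are printed for 4 of them. These are a transcribed posterior pair and a silent anterior pair. HOXA13 had the highest level per length and HOXD13 the clearest difference, while HOXB1 and HOXD1 had 0 counts in every library. The dinucleotide CG, which reads the same on both strands, is in capitals because CG-rich starts are typical of Polycomb targets. Each sequence is on the strand of its gene, at chr7:27239711-27239960 (minus), chr2:176957199-176957448 (plus), chr17:46608374-46608623 (minus) and chr2:177053146-177053395 (plus).
HOXA13: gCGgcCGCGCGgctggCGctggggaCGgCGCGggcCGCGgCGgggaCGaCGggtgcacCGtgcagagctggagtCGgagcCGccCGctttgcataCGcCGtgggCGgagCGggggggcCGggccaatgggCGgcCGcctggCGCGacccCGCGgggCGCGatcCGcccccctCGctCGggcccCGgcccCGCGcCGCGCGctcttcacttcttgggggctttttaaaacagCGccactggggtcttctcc
HOXD13: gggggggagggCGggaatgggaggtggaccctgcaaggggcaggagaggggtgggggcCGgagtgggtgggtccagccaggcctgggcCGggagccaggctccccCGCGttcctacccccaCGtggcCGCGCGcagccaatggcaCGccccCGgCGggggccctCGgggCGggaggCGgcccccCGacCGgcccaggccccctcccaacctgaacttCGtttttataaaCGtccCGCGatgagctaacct
HOXB1: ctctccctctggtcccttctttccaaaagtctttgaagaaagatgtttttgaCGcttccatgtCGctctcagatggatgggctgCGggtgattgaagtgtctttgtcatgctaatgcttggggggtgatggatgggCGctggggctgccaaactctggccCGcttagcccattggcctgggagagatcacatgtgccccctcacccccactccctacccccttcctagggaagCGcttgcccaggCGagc
HOXD1: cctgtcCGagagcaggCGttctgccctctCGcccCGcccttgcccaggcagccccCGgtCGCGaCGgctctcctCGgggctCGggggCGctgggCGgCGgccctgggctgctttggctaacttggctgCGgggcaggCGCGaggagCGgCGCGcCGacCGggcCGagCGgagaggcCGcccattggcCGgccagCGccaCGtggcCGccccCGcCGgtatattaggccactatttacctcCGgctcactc

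These windows held 40 CG in HOXA13, 21 in HOXD13, 7 in HOXB1 and 31 in HOXD1, against a median of 11 over 34788 RefSeq promoters cut to the same length. At least as many CG were found in 2.17% of those promoters for HOXA13, 30.2% for HOXD13, 58.8% for HOXB1 and 10.9% for HOXD1. The silent HOXD1 thus had more CG than the transcribed HOXD13, and the silent HOXB1 had fewer than both transcribed genes. This describes sequence composition only, and fewer than 80% of the HOX genes had an entry, so no composition is given for the clusters as a whole.

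Levels of different genes were compared per length, as CPM divided by the kilobases of annotated exon (RPKM), averaged over the 4 libraries. HOXA13 was highest at 26.3 RPKM, followed by HOXA7 at 23.7, HOXA9 at 21.7, HOXB9 at 20, HOXD13 at 19.3 and HOXB4 at 18.7 RPKM. The order depends on the length used, since reads on exon bases shared with another gene of the same strand are counted for none. Over unshared bases alone HOXA9 was at 25.8 RPKM, above HOXA7 and next to HOXA13. Shared bases were taken from the annotation used for lengths, which is not the release used for counting. Of the 10 highest genes, 5 belonged to HOXA, 3 to HOXB, 1 to HOXC and 1 to HOXD, and 6 were posterior. On the same scale the HOXA genes made up 48.3% of the HOX sum, HOXB 27.2%, HOXC 10.9% and HOXD 13.6%. The 16 posterior genes, 4 of them at 0, made up 58.5%. The 11 central genes made up 25.2% and the 11 anterior genes, 2 of them at 0, 16.3%. All 4 genes of paralog group 13, the most posterior, stood above 5 RPKM (26.3 for HOXA13, 7.12 for HOXB13, 8.31 for HOXC13 and 19.3 for HOXD13) and together took 26.2% of the sum, whereas HOXB1 and HOXD1, of paralog group 1, were at 0. The levels did not follow position smoothly. Across the 38 genes the Spearman rank correlation with paralog group was 0.23 for mean CPM, which is not divided by length. It is given as a description because neighbouring genes are not independent. The 38 HOX genes together took 0.0683% of the gene counts.

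**Figure D1:**
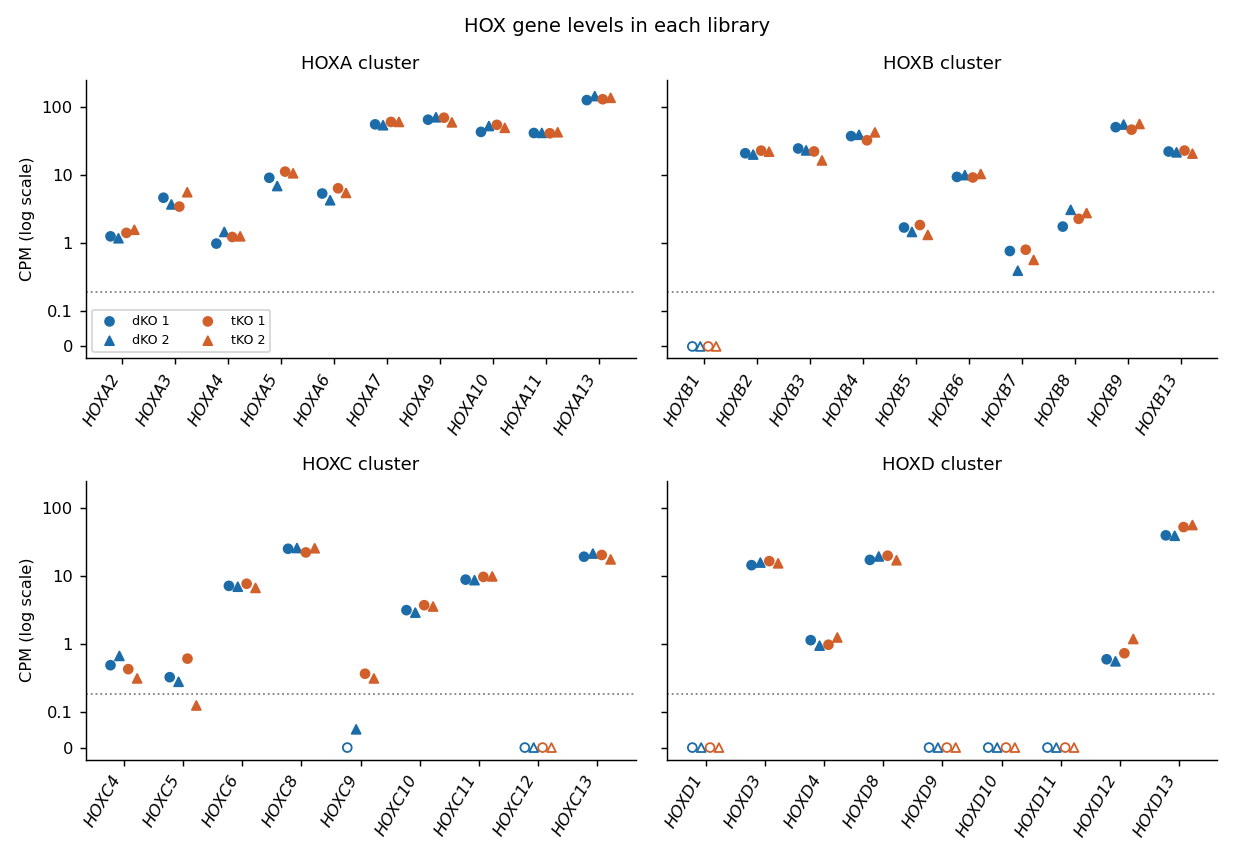
Level of each of the 38 HOX genes (CPM, log scale) in dKO 1 and dKO 2 (blue) and tKO 1 and tKO 2 (orange), by cluster and in order of paralog number. Open symbols mark 0 counts, drawn at an arbitrary position labelled 0, and a dotted line marks the detection level of 3 counts. The 4 libraries of a gene lie close together in most cases, HOXA runs from 1.34 CPM at HOXA2 to 133 CPM at HOXA13, and HOXD drops to 0 from HOXD9 to HOXD11 between transcribed neighbours.

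In the HOXA cluster all 10 genes reported here passed the filter, and levels were low at the anterior end and high from HOXA7 onward. HOXA2, which patterns the hindbrain and the second pharyngeal arch, was at 1.25 and 1.17 CPM in dKO and 1.40 and 1.56 CPM in tKO. HOXA3, needed for thymus and parathyroid formation, was at 4.61 and 3.67 CPM in dKO and 3.41 and 5.54 CPM in tKO, with overlapping groups. HOXA4 was at 0.975 and 1.45 CPM in dKO and 1.22 and 1.25 CPM in tKO. These 3 anterior genes were at most 1.00 RPKM, and their fold changes of 0.27, 0.08 and 0.05 on the log2 scale had intervals reaching from below 0 to above 0.8. HOXA5, a factor of lung development, was at 9.05 and 6.84 CPM in dKO and 11.2 and 10.5 CPM in tKO, so both tKO libraries lay above both dKO libraries. Its log2 fold change was 0.46 (95% interval -0.06 to 0.98, limma adjusted p = 0.996). HOXA6 was at 5.31 and 4.22 CPM in dKO and 6.34 and 5.42 CPM in tKO, again without overlap but with a narrow gap. HOXA7 lay at 55.2 and 53.6 CPM in dKO and 59.95 and 59.92 CPM in tKO. Its libraries did not overlap either, and the log2 fold change was 0.14 (95% interval -0.11 to 0.40). The central HOXA genes therefore summed to 69.5 and 64.6 CPM in dKO and 77.4 and 75.9 CPM in tKO, a ratio of 1.14.

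The posterior HOXA genes lay between 13.4 and 26.3 RPKM. HOXA9, a gene of blood progenitors that is often active in leukaemia, was at 64.7 and 70.1 CPM in dKO and 69.1 and 59.0 CPM in tKO. HOXA10 and HOXA11 both act in the uterus and limb, and HOXA10 was at 42.8 and 52.1 CPM in dKO and 54.3 and 49.0 CPM in tKO. The libraries of HOXA11 lay close together, at 41.2 and 41.3 CPM in dKO and 40.8 and 42.2 CPM in tKO. For HOXA13, which patterns the hand, foot and genital tract, the values were 126 and 144 CPM in dKO and 129 and 136 CPM in tKO (134.5 ± 12.7 and 132 ± 4.46 CPM, SD, n = 2 each). In all 4 of these genes the groups overlapped, and the log2 fold changes were -0.07, 0.13, 0.01 and -0.02. For HOXA13 the 95% interval was -0.26 to 0.23, which leaves out a change of 1.5-fold in either direction.

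In the HOXB cluster 9 of 10 genes passed the filter, and abundant genes (HOXB2 to HOXB4, and HOXB9 with HOXB13) lay on either side of lower ones (HOXB5 to HOXB8). HOXB1, the hindbrain gene at the anterior end, had 0 counts in each library, while HOXB2, 9882 bases away, was at 20.8 and 19.8 CPM in dKO and 22.7 and 21.9 CPM in tKO. HOXB3 was at 24.4 and 22.9 CPM in dKO and 22.1 and 16.3 CPM in tKO, the only tested HOX gene whose tKO libraries both lay below both dKO libraries (an order found in 16.3% of all tested genes). Its log2 fold change was -0.31 (95% interval -0.77 to 0.14, limma adjusted p = 0.996), and without tKO 2 the log2 fold change was -0.084. HOXB4, known for expanding blood stem cells, was at 37.1 and 38.8 CPM in dKO and 32.2 and 42.0 CPM in tKO, where the tKO libraries lay on either side of dKO. HOXB5 was low at 1.68 and 1.45 CPM in dKO and 1.83 and 1.31 CPM in tKO. HOXB6 was higher, at 9.32 and 9.89 CPM in dKO and 9.14 and 10.3 CPM in tKO, and both genes had groups that overlapped. HOXB7 was the lowest HOXB gene past the filter, at 0.759 and 0.389 CPM in dKO and 0.792 and 0.561 CPM in tKO. HOXB8 was at 1.73 and 3.06 CPM in dKO and 2.25 and 2.74 CPM in tKO. With 7 to 14 counts in HOXB7 and 32 to 55 in HOXB8, the 95% intervals of their log2 fold changes were wide, -0.84 to 1.32 and -0.72 to 0.94. HOXB9 rose again to 50.2 and 54.8 CPM in dKO and 46.1 and 55.9 CPM in tKO. HOXB13, the prostate gene that lies 98404 bases from HOXB9, was at 22.0 and 21.4 CPM in dKO and 22.7 and 20.5 CPM in tKO. Both overlapped between the groups, and the HOXB sum was 168 and 172 CPM in dKO and 159.7 and 171 CPM in tKO, a ratio of 0.973.

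In the HOXC cluster 5 of 9 genes passed the filter. HOXC6 was at 7.15 and 6.95 CPM in dKO and 7.68 and 6.67 CPM in tKO. HOXC8, a gene of the thoracic trunk and the highest of this cluster, was at 25.1 and 25.7 CPM in dKO and 22.2 and 25.5 CPM in tKO. Both had overlapping groups. HOXC10 was at 3.14 and 2.89 CPM in dKO and 3.72 and 3.55 CPM in tKO, and HOXC11 at 8.83 and 8.67 CPM in dKO and 9.69 and 9.84 CPM in tKO. These neighbours, which act in the lumbar and hindlimb region, were both slightly higher in both tKO libraries, with log2 fold changes of 0.26 and 0.16 whose intervals included 0. HOXC13, which drives hair and nail keratin genes, was at 19.2 and 21.3 CPM in dKO and 20.4 and 17.5 CPM in tKO, with overlap. Of the genes below the filter, HOXC4 had 9 and 12 counts in dKO and 7 and 5 in tKO, and HOXC5 had 6 and 5 and 10 and 2. HOXC12 had 0 counts in each library although it lies 8358 bases from HOXC13 and 14169 bases from HOXC11, both transcribed. HOXC9, singled out after its values were seen, had 0 and 1 counts in dKO and 6 and 5 in tKO. The ratio of summed tKO to dKO reads, scaled to depth, was 12.4 with an exact 95% counting interval of 1.80 to 532, and it rests on 12 reads in all. This interval takes no account of the choice of HOXC9 by its values or of variation between cultures. The HOXC sum was 64.2 and 66.6 CPM in dKO and 65.0 and 63.8 CPM in tKO, a ratio of 0.985.

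In the HOXD cluster 5 of 9 genes passed the filter, and 4 of the other genes (HOXD1, HOXD9, HOXD10 and HOXD11) had 0 counts in every library. A silent block from HOXD9 to HOXD11 therefore lay between HOXD8 and HOXD12, with 4756 bases between HOXD9 and HOXD8. A count of 0 allows up to 0.163 to 0.187 CPM, depending on the library. On the anterior side HOXD3 was at 14.4 and 15.7 CPM in dKO and 16.5 and 15.3 CPM in tKO. HOXD4 was low, at 1.14 and 0.945 CPM in dKO and 0.975 and 1.25 CPM in tKO. HOXD8 was at 17.2 and 19.3 CPM in dKO and 19.9 and 17.0 CPM in tKO. None of these 3 genes separated the groups, and their log2 fold changes were 0.08, 0.08 and 0.01. HOXD12, a limb gene, was near the filter with 11 and 10 counts in dKO and 12 and 19 in tKO. Its log2 fold change of 0.60 was the highest among the tested HOX genes in the fit on all libraries, but the 95% interval was -0.34 to 1.55. It was 0.90 without tKO 1 and 0.31 without tKO 2, where HOXA5, at 0.51, was higher.

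HOXD13 (chromosome 2, 176957449 to 176960672) gave 730 and 701 counts in dKO and 859 and 899 counts in tKO. This corresponds to 39.3 ± 0.418 CPM in dKO and 54.2 ± 2.59 CPM in tKO (SD, n = 2 each), so the gap between the groups was wider than the spread within either. The difference on the log2 scale was 0.47 (standard error 0.11, 95% interval 0.20 to 0.73). The unadjusted limma p was 0.0047, but after adjustment over all 15136 tested genes it was 0.996 (0.998 in edgeR's quasi-likelihood test and 0.578 in DESeq2), so HOXD13 was not past the threshold. Without tKO 1 the limma adjusted p was 0.0057, in a fit that assumes the lone tKO library varies like dKO and that called 480 genes, and the log2 fold change of 0.50 stayed below 1. The limma adjusted p was 0.0677 without tKO 2, 0.9996 without dKO 1 and 1.0 without dKO 2, with log2 fold changes of 0.43 to 0.48. In the HOXD cluster the sum was 72.9 and 75.5 CPM in dKO and 90.4 and 90.8 CPM in tKO, a ratio of 1.22. The sum without HOXD13 was 33.4 and 36.6 CPM in dKO and 38.1 and 34.8 CPM in tKO, a ratio of 1.04 with overlapping groups.

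**Figure D2:**
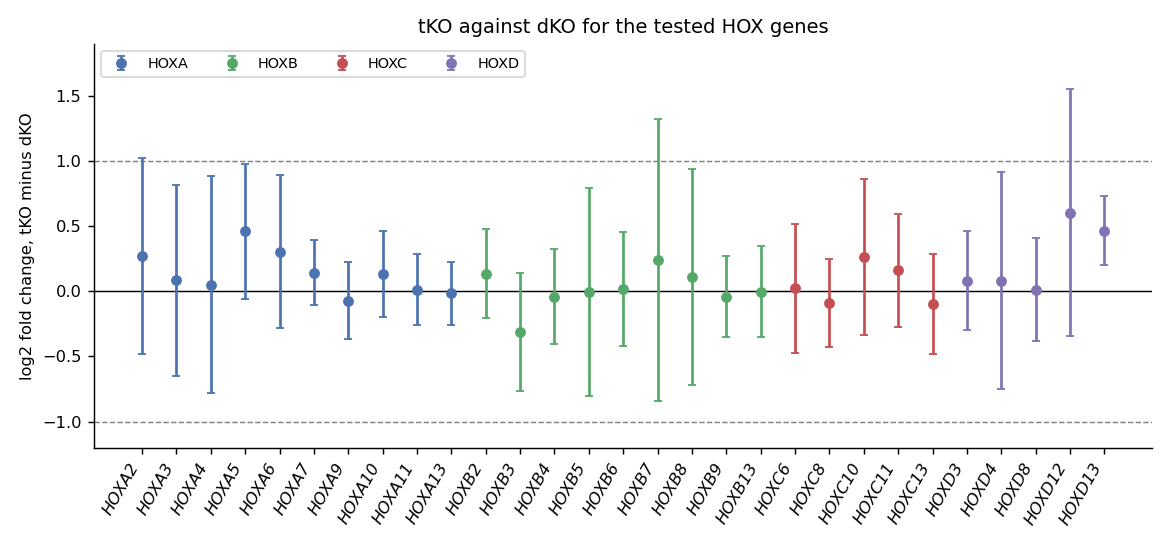
Log2 fold change (tKO minus dKO) of the 29 tested HOX genes by limma, with bars for the 95% interval, colours for the clusters and dashed lines at the threshold of 1 in each direction. HOXD13 is the only gene whose interval, 0.20 to 0.73, leaves out 0, and each point lies between -0.31 and 0.60.

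Across the clusters, 0 of 29 tested HOX genes were differentially expressed (DE, limma adjusted p below 0.05 with a change of over 1 log2 unit), against 2 of all 15136 tested genes (0.0132%). The edgeR quasi-likelihood test and DESeq2 also gave 0. At an unadjusted p below 0.05 there was 1 HOX gene, HOXD13, with each of the 3 tools, while 3.55% of all genes were below it in limma. The count over all genes was sensitive to single libraries: it was 0 without dKO 1 or dKO 2, 480 without tKO 1 and 175 without tKO 2, and 0 HOX genes were DE in each of these fits. Without tKO 1, which leaves tKO 2 as the only tKO library, the log2 fold change of HOXB3 was -0.54, under the fold threshold. Without tKO 2 it was -0.084.

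The fold changes of the tested HOX genes ran from -0.31 to 0.60, with 20 positive and 9 negative. Their median log2 fold change was 0.08, against -0.00137 for all tested genes, and it was 0.027 without dKO 1 and 0.13 without tKO 2. The median absolute log2 fold change was 0.09 for HOX genes and 0.12 for all genes. For 26 of the 29 genes the 95% interval lay within a 2-fold change in either direction, and for 15 within a 1.5-fold change. For the other 3 genes, HOXA2, HOXB7 and HOXD12, all at or under 25 counts in every library, a 2-fold increase lay within the interval. Both tKO libraries exceeded both dKO libraries for 9 tested genes (31.0%, against 15.1% of all tested genes), namely HOXA2, HOXA5, HOXA6, HOXA7, HOXB2, HOXC10, HOXC11, HOXD12 and HOXD13. The reverse order held for 1 (3.45%, against 16.3%), HOXB3. Among the 15 genes with a mean of 10 CPM or more the numbers were 3 (HOXA7, HOXB2 and HOXD13) and 1 (HOXB3), where 14.6% and 16.2% of all genes at that level did so.

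**Figure D3:**
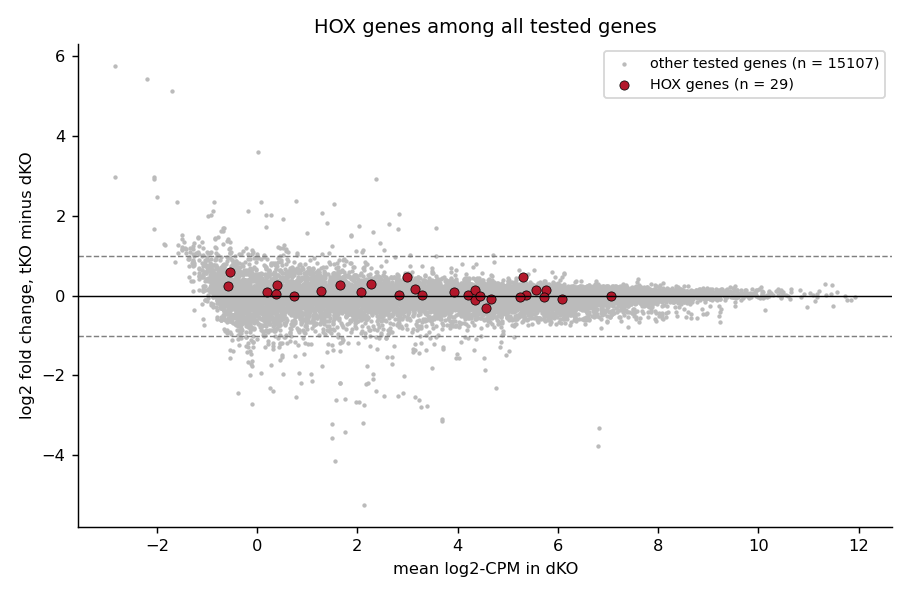
Log2 fold change (tKO minus dKO) against mean log2-CPM in dKO for all tested genes (grey) and the 29 tested HOX genes (red), with dashed lines at the threshold of 1. The HOX genes lie within the band of the other genes, and none reaches the dashed lines.

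Within a genotype the HOX genes differed little between libraries. The median absolute log2 difference between the dKO libraries was 0.11 for tested HOX genes and 0.14 for all tested genes. Between the tKO libraries it was 0.18 and 0.20. No tested HOX gene was over 2-fold apart between libraries of the same genotype. The largest relative spreads were those of genes with few reads, such as HOXB7 at 14 and 7 counts in dKO.

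Genes that work with the HOX factors were also transcribed in both genotypes. PBX, MEIS and PKNOX proteins bind DNA together with HOX proteins. All 8 cofactor genes reported here passed the filter, 0 were DE, and their log2 fold changes lay between -0.39 and 0.23 with a median of 0.02. The mean level was 83.9 CPM for MEIS2, 70.6 CPM for PBX3 and 46.4 CPM for MEIS1. Of 5 upstream regulators, KMT2A (MLL1), a histone methyltransferase that maintains HOX transcription, stood at a mean of 317 CPM and its partner MEN1 at 68.4 CPM. CDX2, a homeobox activator of HOX genes, was at 14.8 and 15.8 CPM in dKO and 14.8 and 17.2 CPM in tKO, and CDX1 and CDX4 were at 0. None of the 3 tested regulators was DE, and their log2 fold changes were between 0.06 and 0.08.

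Genes next to the clusters gave no DE call either. Of 17 flanking genes 14 passed the filter, and their median log2 fold change was -0.06 with a range of -0.44 to 0.26. HIBADH, a mitochondrial enzyme gene beyond the posterior end of HOXA, was at 53.4 and 70.6 CPM in dKO and 45.3 and 45.0 CPM in tKO. It had the lowest log2 fold change of the list (limma adjusted p = 0.996). Of the 14 tested flanking genes it alone had an unadjusted limma p below 0.05, against 3.55% of all tested genes. EVX1, the homeobox gene just beyond HOXA13, was transcribed at 5.20, 5.11, 4.87 and 7.85 CPM, whereas EVX2, just beyond HOXD13, had at most 2 counts in a library. The CBX5 gene, which encodes a heterochromatin protein and lies beyond the anterior end of HOXC, was the highest of the list in CPM, with a mean of 579.9 CPM.

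Noncoding genes inside the clusters were measured in the same libraries. Of 18 such genes 9 passed the filter, 0 were DE, and the median log2 fold change was -0.03. HOTTIP, transcribed from the posterior end of HOXA on the opposite strand, was at 42.1 and 63.9 CPM in dKO and 41.7 and 73.9 CPM in tKO. Its libraries numbered 2 exceeded those numbered 1 in both genotypes, and the groups overlapped. HOXA11-AS averaged 25.3 CPM and HOTAIRM1, at the anterior end of HOXA, 20.3 CPM. HOTAIR, which lies in the HOXC cluster partly opposite to HOXC11, had 100 and 163 counts in dKO and 146 and 85 in tKO, so the order of the libraries was not the order of the groups.

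The strand of the reads matters in these clusters, where genes overlap antisense transcripts. In the annotation used for exon lengths, 19 of the 38 genes had some exon bases covered by a gene on the opposite strand. For 15 some were covered by another gene on the same strand. The counts were made with another release, so these overlaps do not show which reads were left unassigned. HOXB13 had no such opposite-strand bases, yet it had 1493 counts on its own strand and 1211 when strand was ignored. Reads that overlap exons of more than 1 gene are counted for none. HOXA7, with 62.5% of its exon bases opposite to HOXA-AS3, had 3928 counts over the 4 libraries on its own strand and 1279 when strand was ignored. HOXA-AS3 itself had 18 and 17 counts in dKO and 17 and 8 in tKO. The stranded counts also exceeded the unstranded ones for HOXB6 (1.87 times), HOXA10 (1.81), HOXA6 (1.68) and HOXA4 (1.56). Ignoring strand left 0 HOX genes DE. Levels of genes with exon bases shared on the same strand, such as HOXC5 (67.3% shared) and HOXA4 (31.3%), may also be too low. Reads in those bases go unassigned if the bases are shared in the release used for counting, which was not checked. Over unshared bases alone HOXC5 was at 0.634 in place of 0.207 RPKM and HOXA4 at 1.03 in place of 0.707 RPKM.

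**Figure D4:**
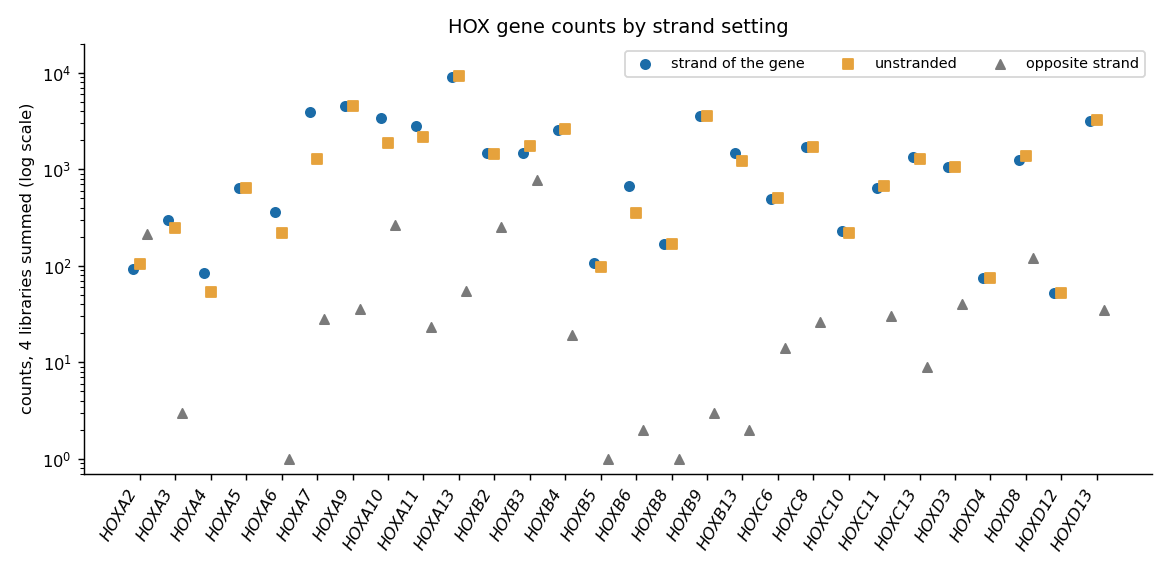
Counts summed over the 4 libraries (log scale) for the 28 HOX genes with at least 50 counts, on the strand of the gene (circles), with strand ignored (squares) and on the opposite strand (triangles, drawn where above 0). HOXA7 has the widest gap between circle and square, 3928 against 1279, and for HOXA2 the opposite strand, at 216, exceeds the 92 counts on the strand of the gene.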

How the data were processed

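RNA-seq libraries had been made from 2 independent biological replicates per genotype, per the methods of the study. The authors trimmed reads (cutadapt 1.12 in Trim Galore 0.4.4), removed ribosomal RNA (Bowtie 1.2), mapped to GRCh37 (hg19) with STAR 2.5.2b (up to 6 mismatches and 20 loci) and deposited raw read counts per GENCODE 19 gene from uniquely mapped reads. The deposited counts came unstranded and for each strand, and the column for the orientation of the stranded kit was used. The other strand took 4.01% to 4.24% of stranded gene reads.

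Positions, symbols and exon lengths were taken from GENCODE 44 lifted to GRCh37, by Ensembl identifier. The name rule finds 39 genes, of which 1 gene of the HOXA cluster is not reported here and left out of all HOX sums and counts, as is 1 gene of the cofactor list. The genes and lists were chosen with earlier results of these data known. The names ATP5G2 and KIAA1715 were matched through RefSeq synonyms (ATP5MC2 and LNPK). Promoters are from RefSeq (GRCh38.p14) and were placed on GRCh37 by a single exact match.

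Genes entered the fit at a CPM above 0.5 in at least 2 libraries. Log2-CPM (prior count 2, TMM, edgeR 4.0.16) were fitted with genotype as the only term in limma 3.58.1 (R 4.3.3), with a mean-variance trend. Benjamini-Hochberg adjustment ran over all 15136 genes, and DE meant an adjusted p below 0.05 with a change of over 1 log2 unit. The filter, TMM, model and thresholds follow the study; the prior count and trend were chosen here. Fold changes on this scale understate changes of genes with few counts. CPM values were computed from the gene total of each library. Genes named were the HOX genes reported here, the targeted genes, and from each list some of the highest by mean CPM. HIBADH, EVX1, EVX2, HOXA-AS3 and the list genes at 0 were named after their values were seen. Other fits tried were DESeq2 1.42.0, edgeR's quasi-likelihood test, limma-voom, limma with no trend, a replicate block, library totals or RLE factors for scaling, CPM above 5 or no filter, a prior count of 0.25, unstranded counts, and each library left out. CPM scaled by TMM and a limit of 10 CPM for the counts of groups without overlap were added after seeing the data. The fit was also run on simulated counts with planted changes at or above the fold threshold, which do not bear on smaller changes. Its outcome is not given here. Counting intervals and floors cover counting error only.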

Additional observations from a re-analysis of the deposited data

Results flagged for a closer look

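The comparisons above used reads on the strand of each gene. The opposite-strand column, which they did not use, held 216 counts over the 4 libraries for HOXA2, 268 for HOXA10, 255 for HOXB2, 777 for HOXB3 and 120 for HOXD8, which is above what a count of 0 allows. For HOXA2 these were 59 and 53 counts in dKO and 52 and 52 in tKO, or 70.1% of its reads on both strands. HOXB3 had 153 and 240 opposite-strand counts in dKO and 197 and 187 in tKO, or 34.4% of its reads. HOXA10 had 68 and 66 in dKO and 74 and 60 in tKO, or 7.30% of its reads. HOXB2 had 58 and 84 in dKO and 58 and 55 in tKO, or 14.8%. HOXD8 had 35 and 22 in dKO and 35 and 28 in tKO, or 8.66%. Over all genes the opposite strand took 4.01% to 4.24% of stranded gene reads, depending on the library. The source of the opposite-strand reads of these HOX genes was not tested.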

How the results depend on the processing

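The count of DE HOX genes was 0 in the reported fit and in all 15 alternatives. The count over all tested genes, 2 in the reported fit, was 1 under edgeR's quasi-likelihood test, 1 when limma had no trend, 1 with no filter, 1 with CPM above 5, 1 with unstranded counts, 25 with DESeq2 and 13 with the replicate block, and leaving out each library in turn gave 0 to 480. The replicate numbers were not taken as pairs: only 2 pairs exist, and the correlation of same-numbered deviations was 0.0581. The median log2 fold change of the tested HOX genes, 0.083 in the reported fit, was 0.014 with CPM above 5, where 20 genes remained tested, and 0.027 to 0.13 when each library was left out. All 426 results for single HOX genes stayed on the same side of the thresholds, and the sign differed from the reported one in 32, in 17 genes whose reported log2 fold change was at most 0.24 in size. In 3 of these genes (HOXA3, HOXA11 and HOXB5) it differed with all libraries kept. Each of the 9 genes at 0 to 12 counts per library was below the filter and was not part of the reported fit.

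Groups of 2 libraries limit every p-value here, and 3 counts, or 0.163 to 0.187 CPM, limit what a silent gene can show.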

Other observations

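Summed by position, the central HOX genes (paralog groups 5 to 8) were at 133 and 132 CPM in dKO and 142 and 140.1 CPM in tKO, a ratio of 1.07 without overlap of the groups. This came from HOXA, whose central genes had a ratio of 1.14, whereas the ratio was 1.02 in HOXB and 1.01 in HOXD, both with overlap, and 0.958 in HOXC, where tKO was lower without overlap. The anterior genes summed to 105 and 105 CPM in dKO and 101 and 105 CPM in tKO, and the posterior genes to 418 and 456 CPM in dKO and 449 and 451 CPM in tKO, both with overlap. Among the silent HOXD genes, HOXD9 had 10 and HOXD10 had 5 counts on the opposite strand over the 4 libraries, and HOXD11 had 0. No test was made of these sums.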
